A study of Mus musculus with 2 samples.

Results

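Collagens and laminins are the large structural proteins of the extracellular matrix, and 54 of their genes, 44 for collagen chains and 10 for laminin chains, were measured among 19938 genes in neural precursor cells from embryonic mouse forebrain. They were taken by name, as every gene whose symbol is that of a collagen alpha chain or of a laminin alpha, beta or gamma chain, and each is given by the brightest of its probe sets, 56 in all. Of the 54 genes, 37 (68.5%) lay above background, beside 56.8% of all genes, and most of the 37 lay only a little above it. Under the stricter floors given below, the share above background was smaller in the family than among all genes. Between the HMGN1 virus and the control virus, 1 of the 37 genes had a log2 difference of at least 0.32 either way. It was the transmembrane collagen gene Col23a1, and it was lower, as were 0.521% of all genes above background by that size.

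A collagen molecule is a triple helix of 3 alpha chains, which may be copies of 1 gene product or come from different genes. Fibrillar collagens form the fibres of connective tissue, whereas collagen IV forms the sheet of the basement membrane together with the laminins, each a cross-shaped trimer of an alpha, a beta and a gamma chain. In the embryonic forebrain, precursor cells anchor their end-feet on the basement membrane under the meninges, and laminins and collagens also surround the brain's vessels. Precursor cells contact these proteins through integrins, dystroglycan and the collagen III receptor Adgrg1.

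The cells came from forebrains of Jcl:ICR mouse embryos at stage E11.5 and received either a control retrovirus or a retrovirus for HMGN1, a chromatin protein that binds nucleosomes. Both groups were grown with FGF2 and EGF, replated 3 days after infection on a surface of poly-D-lysine, and held for 1 day without either factor before total RNA was taken. Each virus is represented by 1 array of biotin-labelled RNA, so no difference has a replicate check and no test between the groups was possible. How many embryos or cultures each RNA sample pooled, which promoter drove HMGN1 and what share of cells was infected are unknown from the sources used here. The single comparison asks how added HMGN1 alters RNA levels in precursor cells after the growth factors are taken away.

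The deposited intensities had medians of 101 and 98.8 over 28944 probe sets in the control virus and HMGN1 virus samples. Hmgn1 itself had intensities of 230 and 348, a log2 difference of 0.57. Differences are HMGN1 virus minus control virus on the scale log2(intensity + 16), which compresses those of dim genes. Background is the 95th percentile of 1035 probe sets for olfactory receptors, a family hardly used in brain precursors, and stood at an intensity of 85.9. For scale, where 1 gene has several probe sets above background, their log2 differences scattered with an SD of 0.0891 (683 genes), and the SD over all 11325 genes above background was 0.111. All 10 listed precursor markers were above background, led by Fabp7 (11137 and 10995) and Vim (7452 and 7521). Their median difference was -0.016, but Sox1 (601 and 467, -0.35) and Prom1 (202 and 169, -0.24) were lower by more. Genes listed as markers of later lineages also gave signal, and which cells made their RNA was not tested. Above background were all 11 oligodendrocyte lineage markers analysed here, led by Olig1 (1968 and 1946) and Olig2 (1427 and 1272), 7 of 8 astrocyte markers, led by Sox9 (1991 and 1948) and Aldoc (1574 and 1496), and all 8 neuron markers, led by Map2 (3115 and 3101) and Dcx (2353 and 2501). Summed intensities were 7534 and 7914 for oligodendrocyte lineage and 8618 and 8951 for neuron markers. Those of all 8 astrocyte markers, with S100b under the floor, were 5225 and 5472. Median differences of the markers above background were 0.094 for oligodendrocyte lineage, 0.077 for astrocyte and 0.080 for neuron markers.

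The brightest glial markers differed little or were lower, while several others were higher with the HMGN1 virus. Of the 7 astrocyte markers 5 were higher, and Gfap, the filament protein of astrocytes (406 and 615, 0.58), had the highest difference of all 11325 genes above background. The water channel Aqp4 (187 and 237, 0.323) was also past 0.32, and the gap junction gene Gja1 differed by 0.28. Of the 11 oligodendrocyte lineage markers 8 were higher, with Enpp6 (121 and 172, 0.46), Gpr17 (686 and 869, 0.33) and Bcas1 (463 and 584, 0.324) past 0.32, and Myrf (0.31) and Mbp (0.28) next. Of the 8 neuron markers 5 were higher and none was past 0.32. Over all genes above background 60.1% were higher, and 0.494% were higher by at least 0.32.

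Markers of the cells that make most collagen in the embryonic head were mostly at background level in both samples. Of 18 genes of mesenchyme, meninges and pericytes, 3 were above background, namely Prrx1 (154 and 151), Pdgfrb (129 and 134) and Acta2 (126 and 122), while Dcn, Lum, Foxc1, Twist1 and Tbx18 were under it. The summed intensity of the 18 was 1151 in the control virus sample and 1166 in the HMGN1 virus sample. Of 14 endothelial genes only Egfl7 (110 and 111) was above background, with Flt1 (73.3 and 68.6), Pecam1 and Cdh5 under it, and the sums were 823 and 812. Of 14 microglia and macrophage genes 3 were above it, led by Cd68 (132 and 126) and Trem2 (116 and 127), with sums of 845 and 834. The part of any of these cell types in the values of the collagen and laminin genes was not tested. In RNA from a whole culture, fewer cells of a type and less RNA per cell cannot be told apart.

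**Figure D1:**
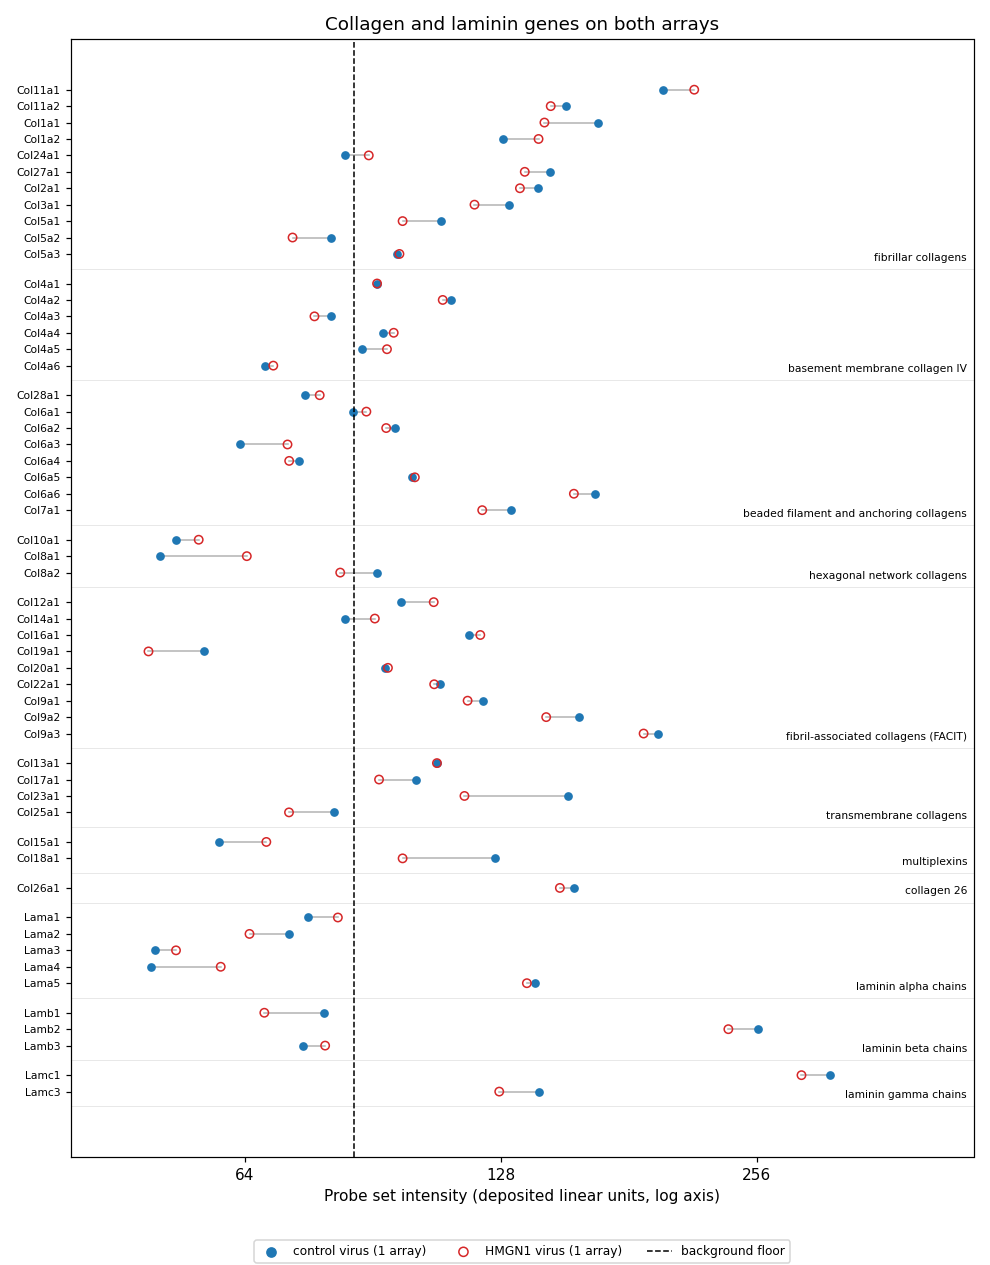
Probe set intensity (deposited linear units, log axis) of all 54 collagen and laminin genes, grouped by structural class, with the control virus array as filled and the HMGN1 virus array as open circles. The dashed line is the background floor at 85.9, and all values lie between 49.3 and 312.

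The plot of both intensities by gene shows how close this family sat to background. Over the 37 genes above it, intensities in the control virus sample ran from 83.9 to 312 and in the HMGN1 virus sample from 82.9 to 289, with medians of 122 and 116. Over all genes above background the medians were 242 and 247. Of the 37, 33 lay under 2 times the floor, and the other 4 were Lamc1, Lamb2, Col11a1 and Col9a3. Just inside the floor lay Col24a1 (84.0 and 89.6), Col8a2 (91.5 and 82.9) and Col6a1 (85.8 and 89.0). Just outside it lay Lama1 (76.0 and 82.4), Col4a3 (81.0 and 77.3) and Lamb3 (74.9 and 79.6). A stricter floor, the 99th olfactory receptor percentile at an intensity of 119.5, left 18 of the 54 genes. It left 9420 of all 19938 genes, which is a larger share. Intensities of different probe sets depend on the probes, so they do not rank the genes by RNA level.

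As a group, the genes above background were lower with the HMGN1 virus more often than higher. Of the 37, 23 were lower, 12 were higher and 2 had the same value on both arrays, whereas 38.4% of all genes above background were lower and 60.1% higher. The median difference of the 37 was -0.050 and that of all genes above background was 0.027. Centring all differences on the latter gave 28 lower and 9 higher, against 50.0% each way over all genes. The differences were small, and 20 of the 37 were within 0.0891, the SD between probe sets of 1 gene. Over all 11325 genes above background 6695 were within it, so small differences were no trait of this family.

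Direction is given by signal too, since most of these genes are dim. Among all genes above background but under 2 times the floor, 47.1% were lower and 50.0% higher (median 0.00057), and the 33 collagen and laminin genes in that range were 20 lower, 11 higher and 2 of equal value (median -0.031). Of the 4 brighter members 3 were lower and 1 higher (median -0.079). Over all genes at or over 2 times the floor 33.9% were lower and 65.3% higher (median 0.036). The 18 genes over the stricter floor were 16 lower and 2 higher (median -0.081). Over all genes above that floor 36.1% were lower and 62.7% higher (median 0.032). The 1027 olfactory receptor genes, which mark background, had a median of -0.050 and were lower in 61.5%. Removing the trend of difference on intensity left 23 of the 37 below 0 and 14 above it (median -0.060). The same step over all genes above background gave 49.8% lower and 50.2% higher (median 0.00034). The 17 genes under the floor went both ways, with 10 higher, 7 lower and a median of 0.047. The part of background signal in the differences was not tested.

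**Figure D2:**
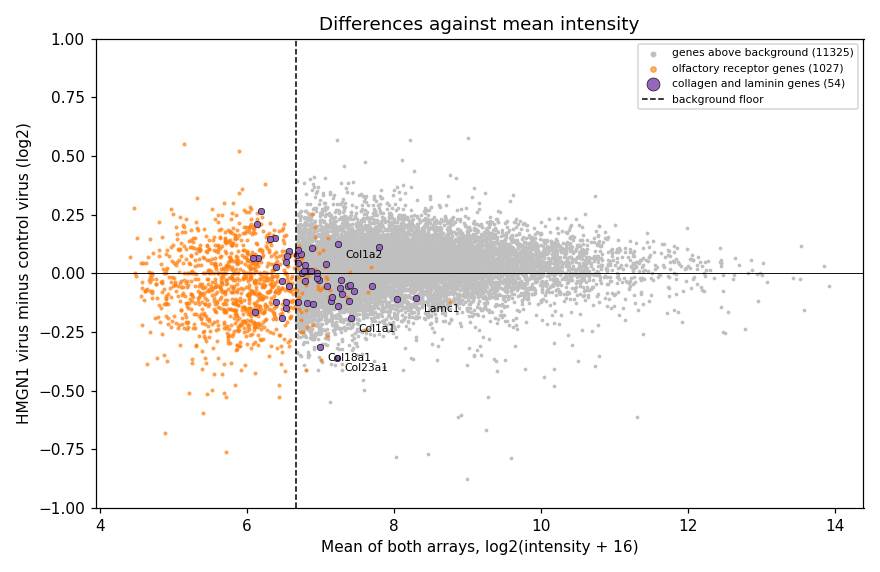
Log2 difference (HMGN1 virus minus control virus) against the mean of both arrays on the log2(intensity + 16) scale, for 11325 genes above background in grey, 1027 olfactory receptor genes in orange and the 54 collagen and laminin genes in purple. The collagen and laminin genes lie at the low end of the intensity range, on both sides of the floor, and Col23a1 and Col18a1 lie below the rest of the family.

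The 2 largest differences of the family belonged to collagens that are not fibre-formers. Col23a1, a transmembrane collagen whose outer part can be shed from the cell, had an intensity of 153 in the control virus sample and of 116 in the HMGN1 virus sample. Its difference of -0.36, or 1.28-fold lower, was the 40th lowest of 11325 genes. Col18a1, a basement membrane collagen that carries heparan sulfate and whose end fragment is endostatin, an inhibitor of vessel growth, had intensities of 126 and 98.1. Its difference of -0.31, or 1.24-fold lower on that scale, was the 65th lowest. Without the offset, the ratio of HMGN1 virus to control virus intensity was 0.757 for Col23a1 and 0.780 for Col18a1. Of all genes above background 0.521% were lower by at least 0.32 and 0.494% higher by as much. None of the 37 was higher by 0.32. None reached 1.5-fold either way, beside 0.0706% of all genes at least 1.5-fold lower and 0% at least 1.5-fold higher.

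The call of Col23a1 and the near miss of Col18a1 turn on the scale. With an offset of 1 in place of 16, Col18a1 differed by -0.36 and Col23a1 by -0.40, so both were past 0.32, and with an offset of 64 neither was (-0.23 and -0.27). Each gene has 1 probe set here, so no second probe set checks either value.

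The promoters of both genes are shown because these 2 genes stood lowest together. The sequences are from RefSeq (GRCm38.p6), each 250 bases before to 50 after an annotated start, written 5′ to 3′ on the gene's strand. Capitals mark matches on either strand to the letters GGGCGG, known as a GC box, and to CCAAT, the box of that name. The letters TATAAA of the TATA box were searched too, and no matches overlap. RefSeq gives 1 start for Col23a1 (chr11:51289670-51289969, plus strand) and 2 for Col18a1, an upstream start (chr10:77166481-77166780, minus strand) and an internal one (chr10:77113656-77113955, minus strand).
Col23a1: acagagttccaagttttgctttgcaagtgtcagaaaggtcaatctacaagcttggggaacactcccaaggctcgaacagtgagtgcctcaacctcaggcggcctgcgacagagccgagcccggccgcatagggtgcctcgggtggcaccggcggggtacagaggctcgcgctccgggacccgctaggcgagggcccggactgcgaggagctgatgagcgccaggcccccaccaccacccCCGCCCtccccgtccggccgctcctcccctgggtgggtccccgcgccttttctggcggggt
Col18a1 upstream start: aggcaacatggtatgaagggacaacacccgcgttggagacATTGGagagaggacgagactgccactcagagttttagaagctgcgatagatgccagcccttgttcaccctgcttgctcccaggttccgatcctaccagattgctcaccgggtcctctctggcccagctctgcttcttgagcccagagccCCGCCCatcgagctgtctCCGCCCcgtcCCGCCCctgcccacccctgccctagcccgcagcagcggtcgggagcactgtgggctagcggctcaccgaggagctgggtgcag
Col18a1 internal start: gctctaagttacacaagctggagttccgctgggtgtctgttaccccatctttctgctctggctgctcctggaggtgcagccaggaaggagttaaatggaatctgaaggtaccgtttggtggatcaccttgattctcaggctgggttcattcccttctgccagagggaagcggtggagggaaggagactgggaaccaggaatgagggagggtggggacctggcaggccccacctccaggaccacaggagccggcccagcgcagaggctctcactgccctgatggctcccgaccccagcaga

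The Col23a1 window was 67.7% G and C with 1 GC box. The upstream Col18a1 window was 63.3% G and C with 3 GC boxes and 1 CCAAT box, and the internal window was 59.7% G and C with no match. None of the 3 windows holds the TATA box letters. The array value does not say which Col18a1 start was used. A GC box was found in 26 of 44 promoter windows of 40 collagen and laminin genes (59.1%) and in 35.7% of all 32851 windows. The median G and C was 59.5% in the 44 windows and 52.7% over all, and its part in the GC box share was not tested. The other genes of the family, among them Col1a1, Lamc1 and Lamc3, had no window counted. Windows on 1 chromosome were left out of the family's count but not of the count over all windows. CCAAT letters were found in 14 of the 44 (31.8%, against 37.4% of all) and TATA box letters in 5 (11.4%, against 13.6%). Such matches describe the letters in these windows and are not shown to be used.

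**Figure D3:**
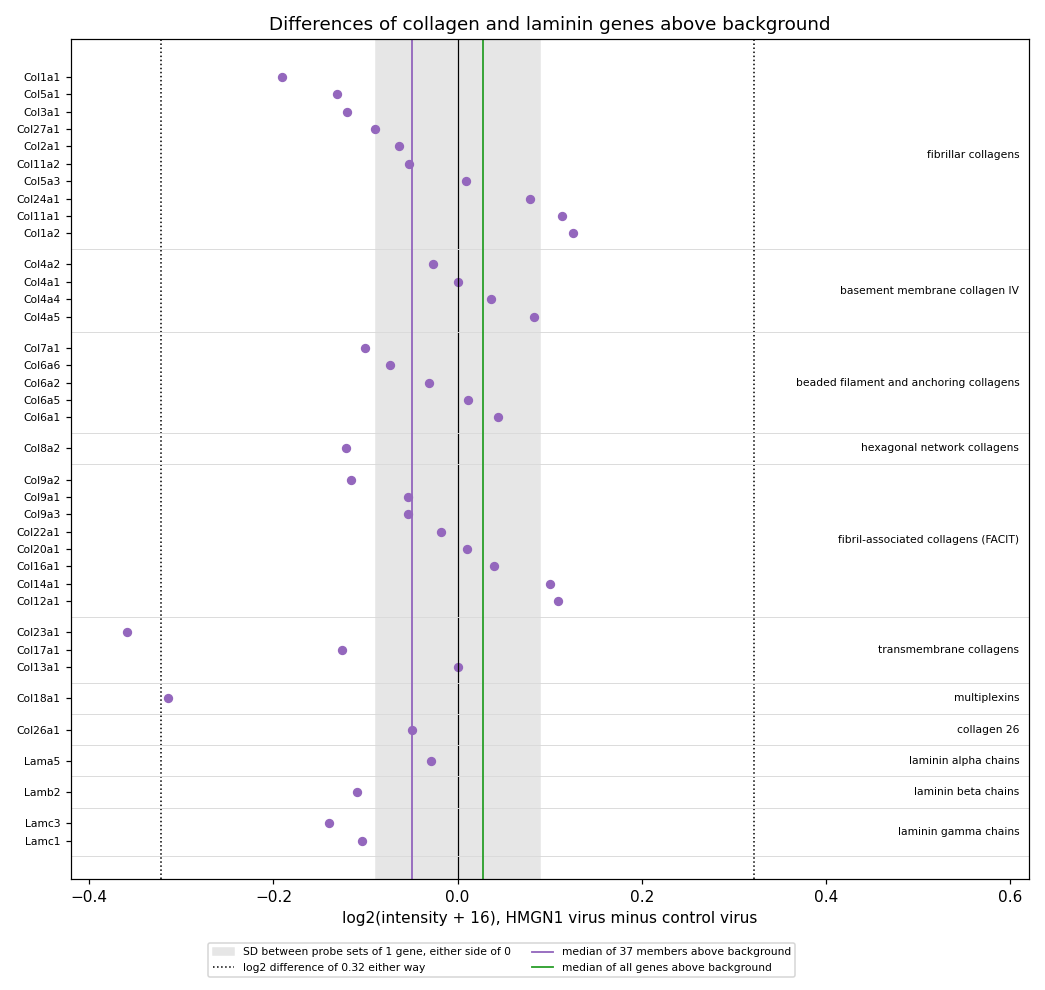
Log2 difference (HMGN1 virus minus control virus) of each of the 37 collagen and laminin genes above background, 1 array per virus, grouped by structural class. Grey shading marks the SD between probe sets of 1 gene (0.0891), dotted lines mark 0.32 either way, and coloured lines mark the medians of the 37 genes (-0.050) and of all genes above background (0.027); only Col23a1 lies past a dotted line.

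Laminin chains above background were all lower with the HMGN1 virus, by small amounts. Lamc1, the gamma chain of most laminins, had intensities of 312 and 289 (-0.10). Lamb2, a beta chain known from synapses and the kidney filter, had 257 and 237 (-0.11). Lamc3, a gamma chain whose loss in humans disturbs cortical folding, had 142 and 127 (-0.14). Lama5, a widespread alpha chain of the embryo, had 141 and 137 (-0.029), within the SD between probe sets. The median of these 4 was -0.11, and 38.4% of all genes above background were lower. Above background were thus 1 of 5 alpha chains, 1 of 3 beta chains and both gamma chains analysed here, and Lama5, Lamb2 and Lamc1 can join in 1 trimer.

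The chains of other laminins lay under the floor in both samples. Lamb1, the beta chain of most embryonic laminins, had intensities of 79.4 and 67.5. Lama1, the alpha chain of early embryonic and pial basement membrane, had 76.0 and 82.4. Lama2, the muscle laminin chain, had 72.1 and 64.9, and Lama4, the vessel chain, had 49.6 and 60.0. Lama3 (50.2 and 53.2) and Lamb3 (74.9 and 79.6), chains of the skin laminin, were also under it. No fold is given for genes under the floor, where signal and background cannot be told apart.

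Collagen IV, the network of the basement membrane, stayed close to its control values. Col4a1 and Col4a2, whose products make the common collagen IV trimer, had intensities of 91.6 on both arrays and of 112 and 109 (-0.027). Col4a4 (93.1 and 95.8, 0.036) and Col4a5 (87.9 and 94.1, 0.083), chains of the trimer of the kidney filter, were also within the SD between probe sets, and their partner Col4a3 was just under the floor. Col4a6 (67.7 and 69.2) was under it too. All 4 differences of this class were within 0.0891. Identical values on both arrays, as for Col4a1 and for Col13a1, occurred in 2.59% of all probe sets.

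Col4a1 and Col4a2 lie head to head, and their RefSeq starts are 21 bases apart on chromosome 8. Their promoter windows are shown because both genes start in the same stretch of DNA and both differences were near 0. Capitals mark the 78 bases that the windows share, read from opposite strands. The Col4a1 window is chr8:11312777-11313076 (minus strand) and the Col4a2 window chr8:11312555-11312854 (plus strand), both GRCm38.p6.
Col4a1: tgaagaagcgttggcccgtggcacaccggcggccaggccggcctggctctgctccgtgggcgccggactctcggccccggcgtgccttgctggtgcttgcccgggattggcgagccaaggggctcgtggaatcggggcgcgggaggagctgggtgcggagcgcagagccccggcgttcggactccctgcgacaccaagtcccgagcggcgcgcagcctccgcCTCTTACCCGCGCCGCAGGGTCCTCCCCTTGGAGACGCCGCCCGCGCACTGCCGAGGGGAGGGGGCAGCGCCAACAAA
Col4a2: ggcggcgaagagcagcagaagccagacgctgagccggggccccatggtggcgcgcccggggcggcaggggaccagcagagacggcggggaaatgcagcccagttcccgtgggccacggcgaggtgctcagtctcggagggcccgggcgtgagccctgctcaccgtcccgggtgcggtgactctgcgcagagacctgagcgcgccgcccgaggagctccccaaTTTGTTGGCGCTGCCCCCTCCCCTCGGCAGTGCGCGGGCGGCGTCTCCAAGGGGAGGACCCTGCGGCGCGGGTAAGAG

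The windows were 74.0% and 73.7% G and C, with 37 and 33 CpG pairs, against medians of 52.7% and 7 over all promoter windows. Col4a5 and Col4a6 are also a head-to-head pair, with starts 1343 bases apart, and of these only Col4a5 was above background.

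Fibrillar collagens went both ways, and so did partner chains of 1 molecule. Of 11 genes 10 were above background, of which 6 were lower and 4 higher (median -0.058), beside 38.4% lower and 60.1% higher over all genes. Col1a1 (167 and 144, -0.19) and Col1a2 (129 and 142, 0.12), the chains of collagen I of bone, skin and meninges, differed in opposite directions. Col3a1, whose product binds Adgrg1 at the pial surface, had 131 and 119 (-0.12).

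The chains that make collagen XI of cartilage and of several embryonic tissues also split. Col11a1 was higher (199 and 216, 0.11), while Col11a2 (153 and 147, -0.053) and Col2a1 (142 and 135, -0.064), which supplies the third chain of that trimer, were lower within the SD between probe sets. Among the collagen V chains, which set the width of fibrils, Col5a1 was lower (109 and 98.1, -0.13) and Col5a3 near 0 (96.6 and 97.3, 0.0093), and Col5a2 lay under the floor (80.8 and 72.9). The minor fibrillar genes Col27a1 (146 and 137, -0.089) and Col24a1 (84.0 and 89.6, 0.079) went opposite ways.

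Fibril-associated collagens, which sit on the surface of fibres, were evenly split. Of 9 genes 8 were above background, 4 lower and 4 higher, with a median of -0.0043. Over all genes above background 38.4% were lower and 60.1% higher. All 3 chains of collagen IX, a partner of cartilage fibres, were lower: Col9a2 (158 and 145) differed by -0.12, Col9a1 (122 and 117) by -0.054 and Col9a3 (196 and 188) by -0.054. Col12a1 (97.8 and 107, 0.11) and Col14a1 (83.9 and 91.0, 0.10), of dense connective tissue, were higher. Col16a1 (117 and 121, 0.040), Col20a1 (93.6 and 94.3, 0.0098) and Col22a1 (108 and 107, -0.018) were near 0, and Col19a1 (57.3 and 49.3) was under the floor.

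Among the beaded filament and anchoring collagens 5 of 8 genes were above background. The collagen VI chains Col6a1 (85.8 and 89.0, 0.044) and Col6a2 (96.3 and 93.9, -0.031) were close to their control values, and their usual partner Col6a3 was under the floor (63.2 and 71.9). Col6a6 had 165 and 156 (-0.073) and Col6a5 had 101 on both arrays to the nearest unit (0.011). A second probe set of each lay far under background, at 38.0 and 37.0 for Col6a6 and at 45.7 and 41.7 for Col6a5, so the value of either gene rests on 1 of its 2 probe sets. Col7a1, the anchoring fibril of skin, was lower (132 and 122, -0.10). Col6a4 and Col28a1 were under the floor, between 72.2 and 78.4.

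The remaining classes hold few genes. Beside Col23a1, the transmembrane collagens Col17a1 of the skin's hemidesmosome (102 and 92.1, -0.13) and Col13a1 of the neuromuscular junction (108 on both arrays) were above background, and Col25a1, a collagen found in amyloid plaques, was under it (81.6 and 72.2). Col15a1, the other multiplexin beside Col18a1, was under the floor (59.7 and 67.9). Col8a2, a network collagen of the cornea, was lower (91.5 and 82.9, -0.12), and its partner Col8a1 (50.8 and 64.4) and the growth plate collagen Col10a1 (53.2 and 56.5) were under the floor. Col26a1 had 156 and 150.2 (-0.050).

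Small differences in this family do not all keep their sign when the scaling changes. The trend of difference on gene span bears on collagens as long genes (median span 75.2 kb, against 23.9 kb for all genes above background with a known span). With that trend removed, 30 of the 37 were lower and 7 higher, beside 49.8% lower and 50.2% higher over all genes with a known span. Col4a4, Col5a3, Col6a5, Col16a1 and Col20a1 then turned from higher to lower, 3 of them (Col5a3, Col6a5 and Col20a1) with centring as well, and Col6a2 turned from lower to higher with quantile normalization.

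Genes that process collagen, build the rest of the basement membrane, bind these proteins or degrade them differed by less than Col23a1 where they were above background, with 1 exception. For this list and those below, the shares over all genes above background were 60.1% higher and 38.4% lower. By at least 0.32, 0.494% of all genes were higher and 0.521% lower. Of 24 processing and crosslinking genes above background, 13 were higher and 11 lower, with a median of 0.010. Plod2, a collagen lysyl hydroxylase (168 and 194, 0.19), the prolyl isomerase Fkbp14 (0.19) and the prolyl hydroxylase P3h1 (0.18) were highest. The procollagen protease enhancer Pcolce2 (105 and 90.0, -0.19), the collagen chaperone Serpinh1 (109 and 95.3, -0.17) and the lysyl oxidase family gene Loxl3 (-0.092) were lowest. None of the 24 reached 0.32 either way.

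Other basement membrane components had a median of -0.020 over 13 genes above background, 6 higher and 7 lower, and none at 0.32 either way. Frem2 (119 and 140, 0.21), Ntn4 (0.11) and Fbln2 (0.074) were highest, and Tinagl1 (96.7 and 84.7, -0.16), the guidance cue Ntn1 (-0.11) and Fbln1 (-0.10) were lowest. Nid1, which links laminin to collagen IV, had 235 on both arrays to the nearest unit.

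Of 13 receptors above background 7 were higher and 6 lower, with a median of 0.0042. Mcam, an adhesion receptor that binds a vessel laminin and is used by endothelial cells and pericytes, was 1.31-fold higher (120 and 162, 0.39) and the only receptor past 0.32. The proteoglycan Sdc1 (121 and 144, 0.22) and the laminin-binding integrin chain Itga6 (364 and 423, 0.21) came next. The ribosomal laminin receptor gene Rpsa, which has near-identical copies and so an uncertain value (-0.14), Sdc4 (-0.13) and Adgrg1 (2971 and 2784, -0.093) were lowest. Mcam was listed as a receptor, and the endothelial and pericyte markers given above were mostly under the floor. The part of these cell types in the Mcam values was not tested.

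Of 12 matrix degradation genes above background 6 were higher and 6 lower (median -0.0036) and none at 0.32 either way. The membrane-bound collagenase Mmp14 (275 and 317, 0.20), the protease inhibitor Timp3 (0.11) and the collagenase Mmp2 (0.093) were highest, and Mmp11 (100.4 and 82.5, -0.24), Mmp16 (423 and 376, -0.16) and Mmp17 (-0.075) were lowest. The medians of these 4 lists lay between -0.020 and 0.010 as measured and between -0.047 and -0.017 after centring on all genes. Those of processing and receptors turned from higher to lower with centring and with the trend on intensity or on gene span removed. The median of processing also did so without a floor (-0.0057). That of receptors did so under floors at the 99th olfactory receptor percentile and at the median of probe sets with 1 symbol (-0.0076). Matrix degradation turned higher with quantile normalization (0.0014), under these floors (0.0033) and without a floor (0.022). The median of other basement membrane components was below 0 in each setting run.

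**Figure D4:**
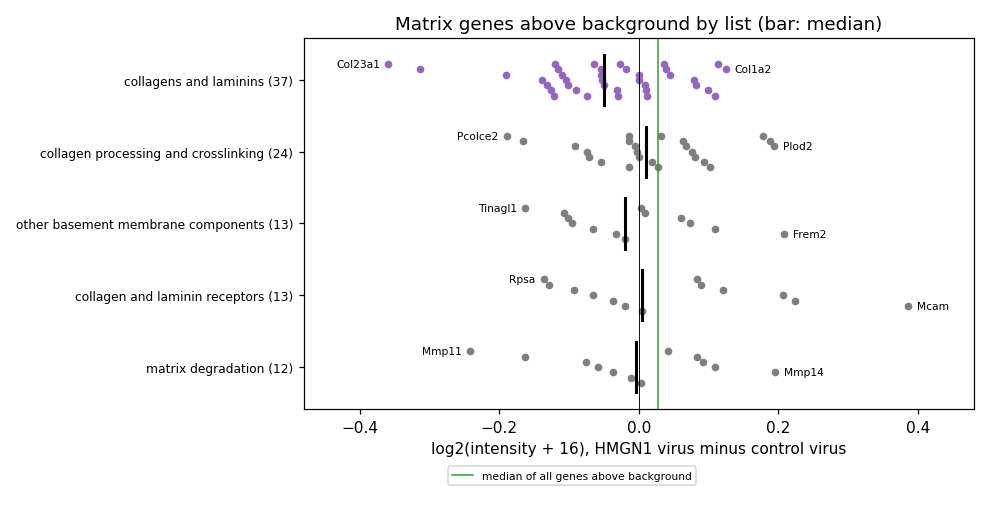
Log2 difference (HMGN1 virus minus control virus) of genes above background among collagens and laminins (37) and in 4 lists of related matrix genes, with black bars for the medians and a green line for the median of all genes above background (0.027); the highest and lowest gene of each list is named. The median of the collagens and laminins is -0.050 and those of the other lists lie between -0.020 and 0.010.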

How the data were processed

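The deposited table holds 1-colour probe set intensity values on a linear scale, 1 column per virus, with 28944 probe sets. The sources used here do not say how the authors made these intensity values (background, normalization, summary of probes), and no further normalization was applied. GEO's platform annotation named the genes and gave 21789 probe sets 1 symbol, 1621 several and 5534 none here. Of the listed genes, 5 matrix genes and 1 marker were not analysed here.

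Differences, folds and averages over the arrays are on the scale log2(intensity + 16). Intensities, their sums and medians, and the floor are printed on the deposited linear scale. A gene with several probe sets took the one with the highest average over the arrays. Background was set at the 95th percentile of this average among olfactory receptor probe sets. With 1 array per virus no test was run, and genes were counted by a log2 difference of 0.32 either way. The number of arrays limits the precision.

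The genes, lists and sizes were chosen with earlier results of these data known. Every gene of the family above background is named, with the genes just under the floor and the partner chains of named trimers. Of each matrix list the 3 highest and 3 lowest genes are named, and of each marker list the 2 brightest; Col15a1, Col10a1, Col19a1, other genes under the floor, Nid1, the markers named beyond the 2 brightest and the named markers under the floor were added after their values were seen. Alternatives were offsets of 1 and 64, quantile normalization, centring, loess removal (span 0.3) of the trends with intensity and gene span, other floors, the mean of probe sets, probe sets of several genes and a size of 1.5-fold. The code was tested on simulated data and used Python 3.11.15, numpy 2.4.6, pandas 2.3.3 and statsmodels 0.14.6.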

Additional observations from a re-analysis of the deposited data

How the results depend on the processing

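The median difference of the collagen and laminin genes above background stayed below 0 under each alternative run, from -0.087 with the gene span trend removed to -0.030 without a floor. The count of 37 above background became 18 under a floor at the 99th percentile of olfactory receptors and 20 under one at the median of probe sets with 1 symbol. Over all 19938 genes the count above background was 11325 as measured, and 9420 and 9821 under these floors. The count higher at any size was 12 of 37. It became 2 of 18 and 3 of 20 under these floors and 22 of 54 without a floor. Over all genes the share higher was 60.1% as measured, 62.7% and 62.3% under these floors and 51.8% without one. Removing the trend on gene span left 7 of 37 higher, beside 50.2% of all genes with a known span. Why these counts changed was not tested. The count lower by at least 0.32, 1, became 2 with an offset of 1, with centring and with the gene span trend removed, and 0 with an offset of 64 and at 1.5-fold. In the first 3 settings Col18a1 joined Col23a1. The count higher by at least 0.32 was 0 throughout. No gene's difference moved by more than 0.0891, and 29 of the 37 kept their sign wherever they had a value, 22 of them lower and 7 higher. No paired analysis was possible because each virus has 1 array, and no replicate could be left out. Low signal limits this family: 33 of the 37 genes above background lay under 2 times the floor of 85.9.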
